A study of Mus musculus with 12 samples.

Results

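The cytosolic HSP70 and HSP110 chaperones are described here by 9 genes of mouse ATDC5 cells, taken by gene name from a table of 54532 genes: Hspa1a, Hspa1b, Hspa1l, Hspa2, Hspa8, Hspa14, Hspa4, Hspa4l and Hsph1. All 9 were found once in the table, and all 9 passed the filter on low counts that 14424 genes passed. ATDC5 is a cell line labelled wild type and cartilage progenitor, used as a culture model of chondrocytes. It was grown in high-sugar medium with serum and kept at 37 °C, 40 °C or 44 °C for 10 min, with 4 libraries of poly-A-captured RNA at each temperature. The 37 °C libraries, at the culture temperature, are the baseline. By its title the series asked how temperature affects chondrocyte growth. The replicates are called biological in the series text. Nothing says which cultures they came from or how long after heating the RNA was taken, so the p-values measure the spread between these libraries.

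HSP70 proteins bind exposed hydrophobic stretches of unfolded proteins and release them in a cycle driven by ATP. J-domain proteins start the cycle, and HSP110 proteins, larger relatives of HSP70, release the ADP that ends it. When proteins unfold in heated cells, the heat shock factor HSF1 is freed from chaperones, binds inverted repeats of the bases GAA in promoters and switches on the inducible HSP70 genes. Constitutive HSP70 is present in unstressed cells as well.

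The inducible genes Hspa1b (ENSMUSG00000090877, chromosome 17, 34956436 to 34959238) and Hspa1a (ENSMUSG00000091971, chromosome 17, 34969190 to 34972156) lie 9951 bases apart on the minus strand of mm10. Each is a single exon without an intron. Hspa1l (ENSMUSG00000007033, chromosome 17, 34972703 to 34979285) starts 546 bases beyond Hspa1a on the plus strand. Hspa2 (ENSMUSG00000059970, chromosome 12, 76404176 to 76406938) also has 1 exon in its annotated coding transcript. Hspa8 (ENSMUSG00000015656, chromosome 9, 40800984 to 40810087) has 9 exons and Hspa14 (ENSMUSG00000109865, chromosome 2, 3488850 to 3512814) has 14. The HSP110 genes have the longest coding sequences of the 9 (2514 to 2574 bases), with 19 exons in Hspa4 (ENSMUSG00000020361, chromosome 11, 53259814 to 53300457), 19 in Hspa4l (ENSMUSG00000025757, chromosome 3, 40744495 to 40796103) and 18 in Hsph1 (ENSMUSG00000029657, chromosome 5, 149614287 to 149636376). All 9 are protein coding and have the same positions in GENCODE M21, whose transcript with the longest coding sequence gave these numbers of exons.

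Promoter windows of 300 bases, from 250 before to 50 after the start, were available for 8 of the 9 genes from RefSeq on GRCm38.p6, Hspa8 being the one without. The windows of the inducible pair are shown because they are nearly one sequence, that of Hsph1 because it holds the longest run of heat shock repeats, and that of Hspa14 because it is the other gene that passed the test below. Capitals mark GAANNTTC or TTCNNGAA, the inverted repeats searched, which on the opposite strand read the same.
Hspa1b, chr17:34959189-34959488, minus strand: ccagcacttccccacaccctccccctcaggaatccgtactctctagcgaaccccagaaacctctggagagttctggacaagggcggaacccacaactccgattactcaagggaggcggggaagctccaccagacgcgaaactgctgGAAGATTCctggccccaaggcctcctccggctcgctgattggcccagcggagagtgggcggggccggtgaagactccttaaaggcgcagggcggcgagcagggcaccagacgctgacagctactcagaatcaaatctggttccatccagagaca
Hspa1a, chr17:34972107-34972406, minus strand: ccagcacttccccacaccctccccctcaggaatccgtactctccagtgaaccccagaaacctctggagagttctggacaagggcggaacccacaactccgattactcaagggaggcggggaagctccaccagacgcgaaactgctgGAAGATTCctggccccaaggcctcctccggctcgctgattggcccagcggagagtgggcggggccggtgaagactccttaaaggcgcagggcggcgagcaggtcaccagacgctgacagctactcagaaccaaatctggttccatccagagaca
Hsph1, chr5:149636287-149636586, minus strand: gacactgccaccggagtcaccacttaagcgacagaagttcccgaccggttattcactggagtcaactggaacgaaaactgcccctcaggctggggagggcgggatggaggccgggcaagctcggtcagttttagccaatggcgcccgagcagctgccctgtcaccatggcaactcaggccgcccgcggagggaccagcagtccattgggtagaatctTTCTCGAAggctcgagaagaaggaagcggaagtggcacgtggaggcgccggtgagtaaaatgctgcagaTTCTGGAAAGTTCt
Hspa14, chr2:3512765-3513064, minus strand: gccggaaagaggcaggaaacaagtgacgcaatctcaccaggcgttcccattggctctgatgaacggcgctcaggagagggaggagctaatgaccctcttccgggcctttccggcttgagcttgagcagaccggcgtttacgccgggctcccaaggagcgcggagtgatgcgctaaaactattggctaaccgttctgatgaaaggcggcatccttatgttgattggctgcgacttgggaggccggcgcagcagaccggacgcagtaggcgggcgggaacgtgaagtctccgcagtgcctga

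The Hspa1b and Hspa1a windows were identical at 98.7% of bases and differed at 4, T44C, C47T, G249T and T276C, with the Hspa1b base first and positions counted from 1 at the 5′ end of the window. Both held 1 repeat, which began 104 bases before the start. One or more of these repeats was found in 15.1% of the 32851 windows of all genes, and in the windows of 3 of the 8 members, Hspa1a, Hspa1b and Hsph1. Hsph1 alone of the 8 had the longer form, TTCNNGAA extended by NNTTC or GAANNTTC extended by NNGAA, which 0.603% of all windows held. Its 3 marked repeats include overlapping ones. The longer form began at position 287 of the window shown, past the start. In a second Hsph1 window, with another start, it began at position 266, also past the start. A match describes the letters of a window and shows no binding.

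Reads cannot be divided with certainty between Hspa1a and Hspa1b. Their coding sequences were 99.43% identical, against 83.02% for Hspa1l and Hspa1b, 78.61% for Hspa2 and Hspa1b, and 74.61% for Hspa8 and Hspa1b. The genes Hspa14, Hspa4, Hspa4l and Hsph1 had 47.51%, 45.33%, 45.54% and 45.65%. Of all 100-base stretches of the Hspa1a transcript, 47.1% occurred unchanged in that of Hspa1b, and 49.9% the other way round. The pair is therefore also given as the sum of its reads. How the counting treated reads that fit both genes is not given in the sources used here, and neither is its use of strand. If such reads were dropped, the sum lacks them too. Exons of the predicted gene Gm20481 cover 19% of Hspa1a exon bases on the other strand, and those of Gm10501 cover 71.9% of Hspa1l. Gm20481 had 0 reads in every library and Gm10501 had between 7 and 21. Exons of Gm45902 share 7.91% of Hspa14 exon bases on the same strand. Gm45902 had between 214 and 290 reads at 44 °C, against between 157 and 250 at 37 °C.

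Total counts lay between 16269026 and 19506705 per library. Of 10 chondrocyte lineage genes 7 passed the filter, among them the regulator genes Sox9 (54.2 ± 10.2 CPM, the count scaled by library size, at 37 °C, SD, n = 4) and Runx2 (62.8 ± 3.43), while the cartilage collagen gene Col2a1 was low (1.21 ± 0.23) and Col9a1 had 0 reads in every library. The summed level of the 10 lay between 108 and 150 CPM at 44 °C, against between 123 and 156 at 37 °C. The defining blood gene Ptprc had 0 reads in 11 of 12 libraries, the muscle regulator genes Myod1 and Myog had 0 in all, and so had the adipocyte gene Adipoq. The summed blood list, nearly all Cd68, lay between 18.5 and 30.4 CPM at 44 °C, against between 26.6 and 39.7 at 37 °C. The epithelial list, nearly all Krt18, lay between 96.9 and 121 CPM at 44 °C, against between 84.3 and 104 at 37 °C, and the adipocyte list, nearly all Lpl, between 37.7 and 42.6, against between 42.4 and 47.8. The summed level of the 4 smooth muscle and perivascular genes lay between 135 and 159 CPM at 44 °C, against between 200 and 231 at 37 °C, and that of the 4 endothelial genes between 4.06 and 5.77, against between 2.18 and 3.3. The part of these markers in the results below was not tested.

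The inducible HSP70 genes rose at 44 °C. Hspa1b was at 8.46, 9.09, 8.78 and 8.35 CPM, on TMM-scaled library sizes, in the 37 °C libraries, 9.65, 10.0, 10.2 and 11.3 CPM at 40 °C, and 20.3, 17.6, 19.2 and 18.1 CPM at 44 °C. Every library at 44 °C lay above every cooler one, and the 3 temperatures did not overlap for Hspa1b. The Hspa1b means were 18.8 ± 1.21 CPM at 44 °C, against 8.67 ± 0.336 CPM in the 37 °C libraries (SD, n = 4 each), a 2.17-fold rise (log2 fold change 1.12 ± 0.089 SE, edgeR adjusted p = 6.56e-06). Hspa1a, the second copy, rested on far fewer reads, with 13, 13, 18 and 10 counts at 37 °C, 21, 17, 25 and 30 in the 40 °C libraries, and 106, 84, 53 and 71 at 44 °C. Its level was 4.61 ± 1.33 CPM at 44 °C, against 0.775 ± 0.207 CPM in the 37 °C libraries (SD, n = 4 each), a 5.92-fold rise (2.57 ± 0.268 SE, edgeR adjusted p = 7.51e-05). The 44 °C libraries lay above all cooler ones but spread widely, with a coefficient of variation of 28.8% for Hspa1a, against 6.43% for Hspa1b. Of the 14424 genes tested, Hspa1a had the highest log2 fold change between 44 °C and 37 °C and Hspa1b the 28th. In bulk RNA, more cells expressing a gene and more RNA per cell cannot be told apart.

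Taken as 1 gene, the inducible pair had 9.12, 9.88, 9.84 and 8.94 CPM at 37 °C, 10.9, 11.1, 11.5 and 13.0 CPM at 40 °C, and 26.5, 22.7, 22.3 and 22.2 CPM at 44 °C. One library, 44 °C replicate 1, stood above the other 3 of its group. The sum averaged 23.4 ± 2.06 CPM at 44 °C, against 9.45 ± 0.485 CPM in the 37 °C libraries (SD, n = 4 each), 2.48-fold higher (log2 fold change 1.31 ± 0.093 SE, edgeR adjusted p = 1.63e-06). With any 1 library left out, the log2 fold change of the sum stayed between 1.25 and 1.33, with adjusted p between 2.21e-06 and 2.48e-05.

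**Figure D1:**
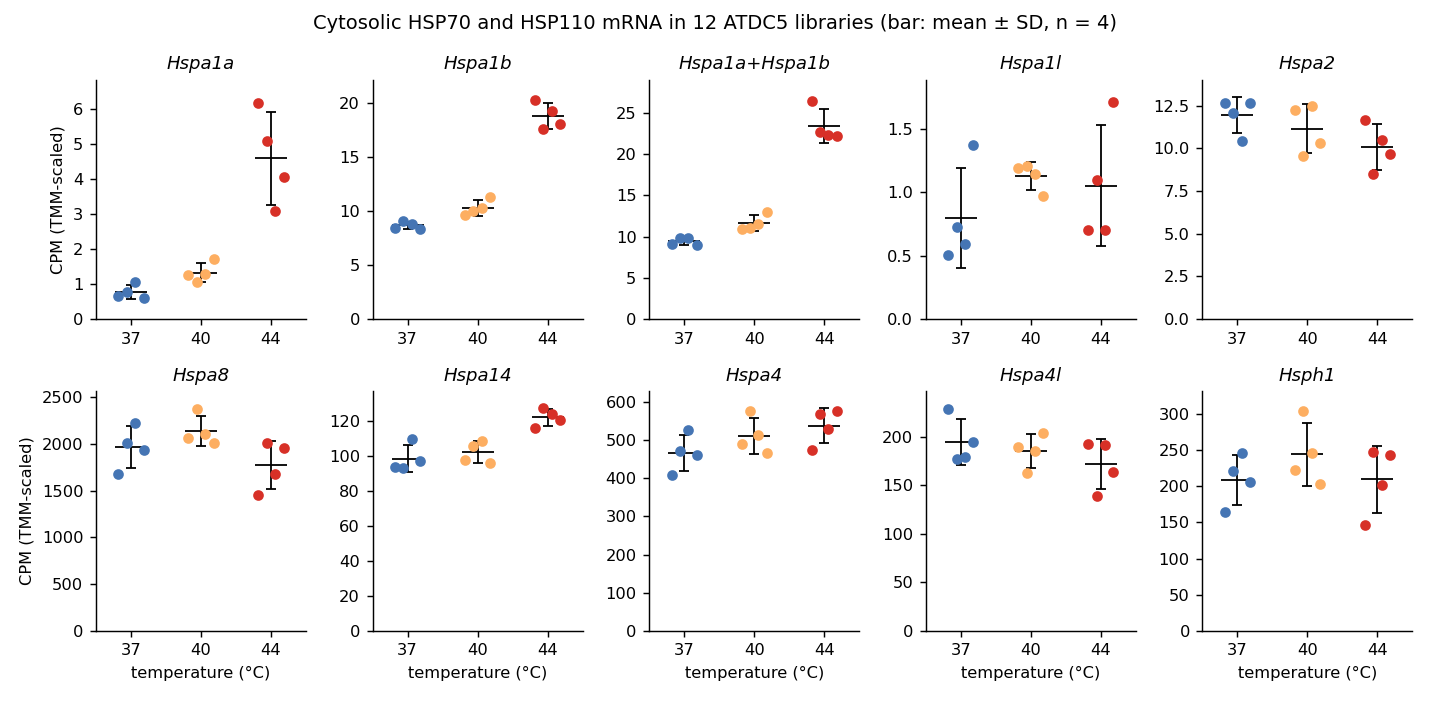
Level of each gene and of the Hspa1a and Hspa1b sum in CPM on TMM-scaled library sizes (y axis, starting at 0) at each temperature in °C (x axis). Points are libraries and bars are mean ± SD (n = 4). Hspa1a, Hspa1b and Hspa14 have every 44 °C library above every 37 °C library, and the other 6 genes overlap.

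At 40 °C neither inducible gene passed the test, though both had a higher mean than at 37 °C. Hspa1b averaged 10.3 ± 0.704 CPM at 40 °C, against 8.67 ± 0.336 CPM in the 37 °C libraries (SD, n = 4 each), with a log2 fold change of 0.25 ± 0.091 SE (edgeR adjusted p = 0.823). Hspa1a averaged 1.33 ± 0.268 CPM at 40 °C, against 0.775 ± 0.207 CPM in the 37 °C libraries, with a log2 fold change of 0.79 ± 0.297 SE (edgeR adjusted p = 0.823). For the sum it was 0.30 ± 0.0957 SE (edgeR adjusted p = 0.823, 95% interval, not adjusted over genes, from 0.11 to 0.49). The 40 °C and 37 °C groups did not overlap for 2 of the 9 members, Hspa1a and Hspa1b, both higher, where 1.61% of all genes did so in that direction. For Hspa1a this held with TMM alone. On library totals its lowest 40 °C library, at 1.045 CPM, lay under the highest 37 °C library, at 1.052 CPM, which leaves 1 of 9 members, Hspa1b. No gene at all passed edgeR's test between 40 °C and 37 °C (0% of 14424), and DESeq2 called 4 genes, none higher. An unadjusted edgeR p under 0.05 was found for 752 of the 14424, Hspa1a and Hspa1b among them. That is close to the share of 0.05 given by a test with no difference in any gene.

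Between 44 °C and 40 °C most of the rise took place. The Hspa1a and Hspa1b sum averaged 23.4 ± 2.06 CPM at 44 °C, against 11.6 ± 0.95 CPM in the 40 °C libraries (SD, n = 4 each), a 2.01-fold difference (log2 fold change 1.01 ± 0.0915 SE, edgeR adjusted p = 2.05e-05). Hspa1b alone had a log2 fold change of 0.87 ± 0.0878 SE (edgeR adjusted p = 6.67e-05) and Hspa1a 1.78 ± 0.249 SE (edgeR adjusted p = 0.00106). The mean difference in CPM between 40 °C and 37 °C was 15.6% of that between 44 °C and 37 °C for the sum, 16% for Hspa1b and 14.6% for Hspa1a.

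The share of the pair's reads that was assigned to Hspa1a was higher in every 44 °C library than in the cooler ones. Hspa1a held 7.18%, 7.98%, 10.8% and 6.67% of the pair's reads at 37 °C, 11.5%, 9.71%, 11.3% and 13.2% in the 40 °C libraries, and 23.3%, 22.5%, 13.9% and 18.3% at 44 °C. The 44 °C libraries ranged widely. The mean share was 19.5% ± 4.35 at 44 °C, against 8.15% ± 1.83 in the 37 °C libraries (SD, n = 4 each; exact two-sided permutation p = 0.0286, the smallest that 4 against 4 can give, adjusted p = 0.0643 over 9 tests). Against 40 °C, at 11.4% ± 1.41, the 44 °C share had the same exact permutation p of 0.0286 (adjusted p = 0.0643), and between 40 °C and 37 °C the exact permutation p was 0.0571 (adjusted p = 0.103). Omitting any 1 of the 37 °C libraries, or of the 40 °C libraries for their comparison, moved the exact permutation p at 44 °C to 0.0571. This comparison was chosen after the values were seen, and the assignment of reads that fit both genes can enter it.

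Hspa8, the constitutive HSP70 gene, did not pass edgeR's test in any comparison. It had 1679.5, 2008, 2224 and 1938 CPM at 37 °C, 2065, 2369.7, 2109 and 2004 CPM at 40 °C, and 1449.7, 2004, 1680.3 and 1959 CPM at 44 °C. The groups overlapped, with 44 °C replicate 1 lowest of all 12 libraries and 40 °C replicate 2 highest. The means were 1773 ± 259 CPM at 44 °C, against 1962 ± 224.5 CPM in the 37 °C libraries (SD, n = 4 each), with a log2 fold change of −0.15 ± 0.0989 SE (edgeR adjusted p = 0.339, 95% interval from −0.34 to 0.048). At 40 °C the mean was 2137 ± 161 CPM (log2 fold change against 37 °C 0.12 ± 0.0989 SE, edgeR adjusted p = 0.823). Between 44 °C and 40 °C it was −0.27 ± 0.099 SE (edgeR adjusted p = 0.138, 95% interval, not adjusted over genes, from −0.46 to −0.075). That difference passed, as lower at 44 °C, with no filter on low counts (adjusted p = 0.00985) and with the replicate number as a block (0.0465). It also passed with the covariate described below (6.63e-07), which was taken from these same libraries and lowers their spread. Under the other alternatives it missed (up to 0.256). On library totals every 44 °C library of Hspa8 lay below every 40 °C library.

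The HSP70 genes best known from the testis were expressed at low levels. Hspa2, needed for sperm formation in mice, had between 10.4 and 12.6 CPM at 37 °C, between 9.55 and 12.5 CPM at 40 °C, and between 8.49 and 11.7 CPM at 44 °C. Its means of 10.1 ± 1.34 CPM at 44 °C, against 11.9 ± 1.05 CPM in the 37 °C libraries (SD, n = 4 each) gave a log2 fold change of −0.25 ± 0.123 SE (edgeR adjusted p = 0.19). Hspa1l had only 10, 12, 10 and 23 counts at 37 °C, 20, 19, 22 and 17 counts at 40 °C, and 12, 18, 12 and 30 counts at 44 °C. Replicate 4 was the highest library in both the 44 °C and the 37 °C group. Its log2 fold change of 0.41 ± 0.367 SE between 44 °C and 37 °C (edgeR adjusted p = 0.478) had a 95% interval from −0.31 to 1.13, which holds both 0 and the log2 fold change of Hspa1b. Single libraries moved that value by over 1.5 times. Omitting 44 °C replicate 4 gave 0.066, omitting 37 °C replicate 4 gave 0.79, and omitting 37 °C replicate 1 gave 0.23.

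Hspa14, whose human protein forms a chaperone complex at the ribosome with a J-domain partner, was the third member to rise. It had 94.1, 93.0, 110.1 and 97.1 CPM at 37 °C, 97.8, 106, 109 and 96.3 CPM at 40 °C, and 116, 128, 124 and 121 CPM at 44 °C. All 44 °C libraries lay above all others, while the 40 °C and 37 °C libraries overlapped. The means of 122 ± 4.84 CPM at 44 °C, against 98.6 ± 7.89 CPM in the 37 °C libraries (SD, n = 4 each) gave a log2 fold change of 0.31 ± 0.0634 SE (edgeR adjusted p = 0.00621), a 1.24-fold rise. Against the 40 °C mean of 102 ± 6.18 CPM it was 0.26 ± 0.0633 SE (edgeR adjusted p = 0.0296). That second call did not hold when a single library was omitted, namely 40 °C replicate 1 (giving an adjusted p of 0.106), 40 °C replicate 4 (0.101), 44 °C replicate 2 (0.0929), replicate 3 (0.0763) or replicate 4 (0.0657), or 37 °C replicate 4 (0.0527), and when only the 8 libraries compared were fitted (0.0536, range over all alternatives 0.000344 to 0.106).

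None of the HSP110 genes passed edgeR's test in any of the 3 comparisons. Hsph1, the heat-inducible HSP110 gene, had 164, 221, 245 and 205.5 CPM at 37 °C, 223, 305, 246 and 203 CPM at 40 °C, and 146, 247, 201 and 243 CPM at 44 °C. The groups overlapped widely, and the lowest library was 44 °C replicate 1. Its log2 fold change was 0.0030 ± 0.161 SE between 44 °C and 37 °C (edgeR adjusted p = 0.993, 95% interval from −0.31 to 0.32) and 0.22 ± 0.16 SE between 40 °C and 37 °C (edgeR adjusted p = 0.823, 95% interval from −0.09 to 0.54). Neither of these intervals reaches the rise of Hspa1b at 44 °C.

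Hspa4, the HSP110 gene with the most transcript per length, had 409, 471, 525 and 462 CPM at 37 °C, 490.1, 576, 513 and 467 CPM at 40 °C, and 475, 569, 529 and 576 CPM at 44 °C. Each temperature overlapped the others. Its log2 fold change was 0.20 ± 0.0828 SE between 44 °C and 37 °C (edgeR adjusted p = 0.111). Hspa4 became a call once 44 °C replicate 1 was omitted, where the adjusted p was 0.0346. It was also called with no filter on low counts (0.0467), with the replicate number as a block (0.0489) and with the covariate described below (5.88e-05). Over all alternatives the adjusted p ran from 5.88e-05 to 0.315. Hspa4l, described in mice as a testis-rich HSP110 gene that answers osmotic stress, had between 177 and 228 CPM at 37 °C, between 162 and 203 CPM at 40 °C, and between 139 and 193 CPM at 44 °C. Its log2 fold change was −0.18 ± 0.106 SE between 44 °C and 37 °C (edgeR adjusted p = 0.261) and −0.07 ± 0.106 SE between 40 °C and 37 °C (edgeR adjusted p = 0.891). Between 44 °C and 40 °C the log2 fold changes were −0.22 ± 0.16 SE for Hsph1, 0.07 ± 0.0828 SE for Hspa4 and −0.11 ± 0.106 SE for Hspa4l, with edgeR adjusted p of 0.475, 0.683 and 0.615.

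**Figure D2:**
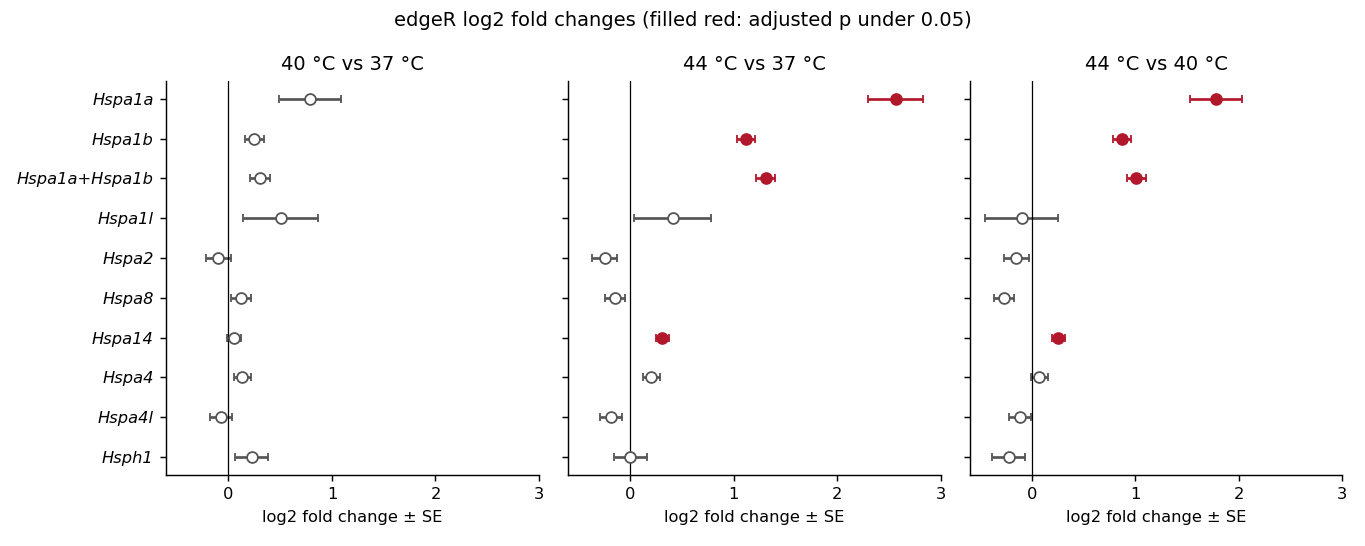
Log2 fold change ± SE (x axis) of each gene and of the Hspa1a and Hspa1b sum in the 3 comparisons, from edgeR on all 12 libraries. Filled red points passed an adjusted p of 0.05: Hspa1a, Hspa1b, their sum and Hspa14 at 44 °C against 37 °C and against 40 °C, and no gene at 40 °C against 37 °C.

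In all, 3 of the 9 members were called between 44 °C and 37 °C, all higher, where 13.7% of all genes tested were called and 6.58% were called higher. Hspa1a and Hspa1b count separately here and below, although reads cannot be divided between them with certainty. The same 3 were the members whose 44 °C libraries all lay above the 37 °C libraries, as 8.62% of all genes did. The median log2 fold change of the members was 0.20, beside −0.00034 over all genes. Between 44 °C and 40 °C the same 3 genes were called, all higher, where 5.03% of all genes were called and 1.88% higher, and the members' median was −0.09. With libraries scaled by their totals, 394 of 749 calls in that comparison were higher, beside 271 of 725 with TMM. The 44 °C libraries of these 3 members all lay above the 40 °C libraries, as did those of 5.28% of all genes. Over the 3 temperatures together, Hspa1b (adjusted p = 9.05e-06), Hspa1a (0.000102) and Hspa14 (0.0118) passed edgeR's joint test and the other 6 did not, where 8.21% of all genes passed. Both Hspa1a and Hspa1b were among the 22 genes (0.153%) that were called and at least 2-fold higher at 44 °C than at 37 °C.

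Inducible and constitutive transcript were also set against each other within each library. The log2 ratio of Hspa1b to Hspa8 reads, which no library scaling enters, was −6.16, −6.83, −6.45 and −6.76 at 44 °C, against −7.63, −7.79, −7.99 and −7.86 at 37 °C. The ratio was higher in every 44 °C library, by 1.27 on the log2 scale in the mean (exact two-sided permutation p = 0.0286, the smallest possible, adjusted p = 0.0643 over 9 tests, above 0.05). Against 40 °C the mean difference was 1.15 with the same p. Between 40 °C and 37 °C it was 0.12 (exact permutation p = 0.371, adjusted p = 0.418). The ratio of Hspa8 to Hsph1 was 3.10 ± 0.14 at 44 °C, against 3.24 ± 0.0833 in the 37 °C libraries, on the log2 scale (SD, n = 4 each; difference −0.14, exact permutation p = 0.143, adjusted p = 0.214), and without 44 °C replicate 1 the difference was −0.21 (exact permutation p = 0.0286).

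Per gene length, Hspa8 dominated the family at every temperature. That length covers all annotated exons of a gene, 11792 bases for Hspa4l and 4057 for Hspa14, and may exceed the transcripts present. The order below, and sums and ratios per length, depend on it. Hspa4l came below Hspa14 at 37 °C although its mean CPM was higher (195 against 98.6). Hspa1a and Hspa1b are placed too low if reads that fit both were dropped in counting. In CPM per kilobase of gene length, the level of Hspa8 was 456 ± 52.2 at 37 °C, 497 ± 37.4 at 40 °C and, in the hottest group, 412 ± 60.2 (SD, n = 4 each). Hspa4 came next, with 84.4 ± 8.65 at 37 °C, 92.5 ± 8.46 at 40 °C, then 97.2 ± 8.35 at 44 °C. At 37 °C the order then ran through Hsph1 (28.8 ± 4.72), Hspa14 (24.3 ± 1.94), Hspa4l (16.5 ± 2.01), Hspa2 (4.52 ± 0.396), Hspa1b (3.09 ± 0.12), Hspa1l (0.323 ± 0.159) and Hspa1a (0.261 ± 0.0697). Among neighbours in that order only Hsph1 and Hspa14, and Hspa1l and Hspa1a, had overlapping ranges. At 40 °C Hspa2 (4.22 ± 0.546) overlapped Hspa1b (3.67 ± 0.251), and Hspa1l (0.456 ± 0.0438) overlapped Hspa1a (0.45 ± 0.0904). At 44 °C Hspa14 (30.1 ± 1.19) overlapped Hsph1 (28.8 ± 6.44), Hspa1b (6.71 ± 0.432) lay above Hspa2 (3.81 ± 0.506), and Hspa1a (1.55 ± 0.448) lay above Hspa1l (0.425 ± 0.193).

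The inducible pair was a small part of the cytosolic HSP70 transcript counted. Its share is too low if reads that fit both genes were dropped in counting, which is not known. Of the summed level per length of Hspa1a, Hspa1b, Hspa1l, Hspa2 and Hspa8, the pair held 0.813%, 0.739%, 0.665% and 0.692% at 37 °C, 0.79%, 0.703%, 0.819% and 0.969% in the 40 °C libraries, and 2.66%, 1.67%, 1.96% and 1.67% at 44 °C. The 44 °C libraries lay above all others. The summed level itself was 425 ± 59.3 CPM per kilobase at 44 °C, against 464 ± 52 in the 37 °C libraries (SD, n = 4 each), with overlapping libraries, since it is almost all Hspa8. The 3 HSP110 genes summed to 141 ± 13.1 CPM per kilobase at 44 °C, against 129.7 ± 11.6 in the 37 °C libraries. The ratio of the HSP70 sum to the HSP110 sum was 3.44, 3.64, 3.64 and 3.58 at 37 °C, 3.61, 3.5, 3.51 and 3.66 in the 40 °C libraries, and 2.87, 3.21, 2.88 and 3.09 at 44 °C. The 44 °C libraries were the 4 lowest for this ratio, which was looked at after the values were seen and carries no test.

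**Figure D3:**
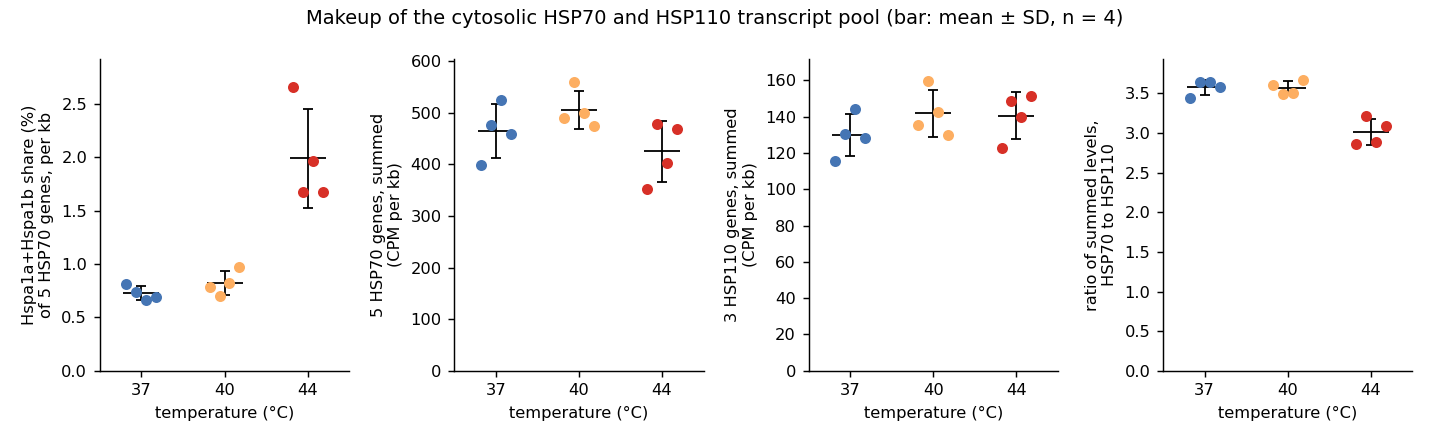
Quantities per library (y axes, starting at 0) at each temperature in °C: the share of Hspa1a and Hspa1b in the summed level per length of 5 HSP70 genes, that summed level, the summed level of 3 HSP110 genes, and the ratio of both sums. Points are libraries and bars are mean ± SD (n = 4). The share lies between 1.67% and 2.66% at 44 °C and under 0.97% in the cooler libraries, and the ratio lies between 2.87 and 3.21 at 44 °C and at or above 3.44 in the cooler ones.

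Within the groups, several chaperone genes varied with Hspa8 from library to library, some in the same direction and some in the opposite one. Over the 12 deviations from the group means, which share library and scaling, Hspa8 had a Pearson r of 0.975 with Hsph1 (Spearman's rho 0.944), 0.951 with Hspa4 (rho 0.93) and −0.894 with Hspa4l (rho −0.923). Without the 2 libraries farthest out the values of r were 0.944, 0.921 and −0.864, and under scaling by library totals they were 0.97, 0.937 and −0.905. With Hspa1b the r of Hspa8 was −0.462, and −0.102 without the 2 farthest libraries. With Hspa2, a gene of low level, the r of Hspa8 was −0.778 (−0.678 without the 2 farthest libraries). It was 0.64 with Hspa14, 0.505 with Hspa1l and −0.024 with Hspa1a. These are descriptions of 12 libraries and carry no test.

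**Figure D4:**
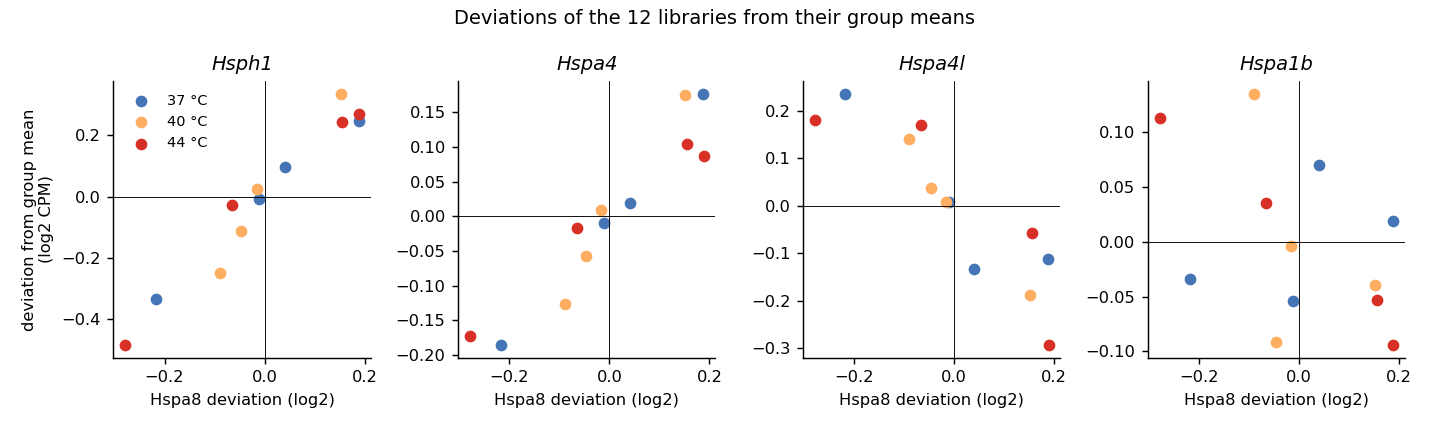
Deviation of Hsph1, Hspa4, Hspa4l and Hspa1b (y axes) from the group mean against that of Hspa8 (x axis), both in log2 CPM, for 12 libraries coloured by temperature. Hsph1 and Hspa4 rise with Hspa8 (r = 0.975 and 0.951), Hspa4l falls (r = −0.894), and Hspa1b follows it less closely (r = −0.462).

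This variation followed that of other genes. The first component of the within-group deviations, built without the members and the listed HSP70 machinery genes, held 29.62% of the within-group variance. Its r with the member's deviation was 0.962 for Hspa8, 0.968 for Hsph1, 0.945 for Hspa4, −0.908 for Hspa4l and −0.744 for Hspa2. That r was −0.57 for Hspa1b, 0.576 for Hspa14, 0.541 for Hspa1l and −0.135 for Hspa1a. With this component as a covariate, which leaves the group means in place and lowers the spread, 3 members were called at 40 °C against 37 °C, all higher, Hsph1 (0.22, adjusted p = 0.00785), Hspa8 (0.13, 0.0234) and Hspa4 (0.13, 0.0305). Their adjusted p reached 1 under other alternatives. At 44 °C against 37 °C it added Hspa4 as higher (adjusted p = 5.88e-05) and Hspa8 (−0.15, 0.000511, up to 0.65 in other alternatives) and Hspa4l (−0.19, 0.00309, up to 0.598) as lower. At 44 °C against 40 °C it added Hspa8 (−0.28, 6.63e-07, up to 0.256) and Hsph1 (−0.23, 0.000556, up to 0.758) as lower. The covariate was taken from these same libraries, so its p-values describe them only.

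Of 29 other genes of the HSP70 machinery, all measured, 1 rose and 4 fell between 44 °C and 37 °C, where 6.58% of all genes rose and 7.11% fell, and the list's median log2 fold change was 0.02. The gene that rose was Hsf1, which encodes the main heat shock factor, at 102 ± 10.4 CPM at 44 °C, against 85.4 ± 5.85 CPM in the 37 °C libraries (log2 fold change 0.26 ± 0.0792 SE, edgeR adjusted p = 0.0435). Of 9 J-domain partner genes only Dnajb4 passed, at 79.0 ± 9.52 CPM at 44 °C, against 95.7 ± 6.44 CPM in the 37 °C libraries (−0.28 ± 0.0788 SE, edgeR adjusted p = 0.0328). Dnajb1, the HSF1 target that works with inducible HSP70, had 129 ± 5.06 CPM at 44 °C, against 126 ± 7.23 CPM in the 37 °C libraries (0.03, edgeR adjusted p = 0.718). At 40 °C Dnajb1 had 141 ± 3.70 CPM, with a log2 fold change against 37 °C of 0.16 ± 0.0521 SE (edgeR adjusted p = 0.823). Every 40 °C library of Dnajb1 lay above every 37 °C library, as in 1.61% of all genes. Among 7 exchange factor genes, Bag3, whose protein links HSP70 to autophagy, fell to 72.2 ± 5.92 CPM at 44 °C, against 89.2 ± 3.47 CPM at 37 °C (−0.30 ± 0.0668 SE, edgeR adjusted p = 0.00929). In the joint test over the 3 temperatures Bag3 passed (adjusted p = 0.0148), while Hsf1 (0.104) and Dnajb4 (0.0692) did not. None of 5 other co-factor genes, among them Stip1 and St13, passed.

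Of 6 organelle or divergent family genes, 2 fell and none rose between 44 °C and 37 °C. Hspa5, the HSP70 of the endoplasmic reticulum, fell to 1056 ± 57.6 CPM at 44 °C, against 1901 ± 130.5 CPM at 37 °C (log2 fold change −0.85 ± 0.0547 SE, edgeR adjusted p = 7.05e-07). Hspa13, a microsomal HSP70, fell to 133 ± 3.25 CPM at 44 °C, against 154 ± 3.35 CPM at 37 °C (−0.21 ± 0.0466 SE, edgeR adjusted p = 0.0101). Hspa9, the mitochondrial HSP70, did not pass (0.20 ± 0.0929 SE, edgeR adjusted p = 0.16). Between 44 °C and 40 °C, 4 of the 29 genes fell and none rose, where 3.15% of all genes fell and 1.88% rose. They were Hspa5 (−0.89), Hyou1, an HSP110 relative of the endoplasmic reticulum (−0.33), Bag3 (−0.29) and Hspa13 (−0.23), with adjusted p of 5.31e-07, 0.0101, 0.0196 and 0.00879. None of the 29 passed between 40 °C and 37 °C. An unadjusted edgeR p under 0.05 was found for 2 of them, Dnajb1 and Hyou1, both higher, where 752 of all 14424 genes had one.

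The genes whose log2 CPM was most like that of the inducible sum over the 12 libraries were E2f7, a cell cycle repressor gene (r = 0.977), the splicing factor gene Sf3b2 (0.972), Hpf1 (0.966), the transcription pausing factor gene Nelfe (0.966) and the matricellular gene Cyr61 (0.963). All of them were called higher at 44 °C than at 37 °C, as 6.58% of all genes were, with log2 fold changes from 0.12 in Sf3b2 to 1.05 in Cyr61. Choosing genes by likeness to a sum that rose at 44 °C favours such calls. Hspa8 was most like Canx, the gene of the chaperone calnexin (0.982), the constitutive HSP90 gene Hsp90ab1 (0.981), Ubtf (0.979), Rnf225 (0.977) and Ywhag (0.967). Hsph1 was most like Serp1 (0.976), Hdgfl3 (0.975), Tmem97 (0.972), Nfatc3 (0.97) and the proteasome subunit gene Psmd7 (0.968). None of those 10 genes was called between 44 °C and 37 °C, where 13.7% of all genes were. Their choice by likeness to profiles that were not called favours this. These r values describe 12 libraries, rank the genes by likeness to a chosen profile and carry no p.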

How the data were processed

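The authors deposited raw counts per gene, 1 column for each of 12 libraries, with gene length, position and name. The tools named, per the submitters' processing notes, are featureCounts 1.5.0-p3, HISAT2 2.0.5, fastp and StringTie 1.3.3b, with the build mm10 and no role or order. Totals ran from 16269026 to 19506705 counts, which leaves genes near 10 counts imprecise.

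Here R 4.3.3 with edgeR 4.0.16 kept genes by filterByExpr (minimum count 10, minimum total 15; 14424 of 54532), scaled libraries by TMM and fitted 1 mean per temperature to all 12 libraries. Quasi-likelihood F-tests were two-sided, adjusted by Benjamini-Hochberg over all genes and called under 0.05. SE is the log2 fold change over the square root of F. The 95% intervals reach 1.96 SE to either side. They are not adjusted over genes and are narrower than the F-test would give. The common biological coefficient of variation was 0.102. The sum of Hspa1a and Hspa1b replaced both rows in a second fit. Ratios of 2 genes were compared by exact permutation over libraries. The planned permutation test of the inducible share is not reported, since the share is a sum over chosen genes. Levels per length divide by the deposited gene length. Sequences came from RefSeq and GENCODE tables and were aligned with Biopython 1.88.

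All members were named, as were called genes of the machinery list and the 5 genes most like each of 3 profiles. Members and lists were chosen with earlier results of these data known. Dnajb1, Hspa9, Stip1 and St13 were named after their values were seen. Each library counted as 1. Libraries within groups differed by a chi-square per gene of 2.88 to 21.58, which does not show that they came from separate cultures. The tests were checked on simulated counts drawn independently for each library, without the shared within-group component found here. DESeq2 1.42.0 was an alternative.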

Additional observations from a re-analysis of the deposited data

Results flagged for a closer look

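One of 54 groups of 4 values examined stood out, where chance gives about 1 in 20. The Hspa1a and Hspa1b sum was 26.48 CPM in 44 °C replicate 1, against 22.7 CPM in the nearest and 22.2 CPM in the lowest library of that group, which makes this library far from the other 3. The same library had the lowest Hspa8 (1449.7 CPM) and Hsph1 (146 CPM) of all 12. Without it, the sum had a log2 fold change of 1.25 between 44 °C and 37 °C.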

How the results depend on the processing

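The log2 fold changes of the Hspa1a and Hspa1b sum kept their direction and side of the threshold under every alternative run. Of 512 values of single members, 481 did, 11 turned direction, 7 lost a call and 13 gained one. Hsph1 between 44 °C and 37 °C, at 0.0030, turned to −0.00062 with only the 2 groups compared, −0.0067 with the replicate block and −0.011 with the within-group component as covariate. Leaving out 1 library gave −0.10 to 0.14 for it, −0.12 to 0.014 for Hspa4l between 40 °C and 37 °C, and −0.44 to 0.057 for Hspa1l between 44 °C and 40 °C.

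The covariate moved the members called to 3, 6 and 5 for 40 °C against 37 °C, 44 °C against 37 °C and 44 °C against 40 °C, from 0, 3 and 3, and the genes called to 586, 5034 and 3217, from 0, 1975 and 725. For 40 °C against 37 °C, 13 genes were called with no filter and 4 with DESeq2. For 44 °C against 40 °C, 1211 were called with DESeq2, 334 with only the 2 groups compared and 270 at an adjusted p of 0.01, where 44 °C against 37 °C had 630. With library totals 1096 of 2008 calls at 44 °C against 37 °C were higher, beside 949 of 1975, and 394 of 749 against 40 °C, beside 271 of 725. Leaving out 1 library gave 0 to 1, 979 to 3322 and 394 to 1261 genes, the highest counts without 44 °C replicate 1; counts moved by over 1.5 times also without 44 °C replicate 2 or 4, 37 °C replicate 1, 2 or 4 (against 37 °C) and 40 °C replicate 1, 3 or 4 (against 40 °C), and 0, 3 to 4 and 2 to 3 members. On library totals 1 member, in place of 2, lay wholly above at 40 °C against 37 °C, and 1, in place of 0, wholly below at 44 °C against 40 °C, an alternative added after the values were seen. The causes were not tested.

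The replicate numbers were not shown to pair libraries: deviations of same-numbered libraries had r between −0.2062 and 0.364. In most cases the best match was a library of another number. With the replicate block 0, 2557 and 901 genes were called, and Hspa4 at 44 °C against 37 °C (adjusted p = 0.0489) and Hspa8 at 44 °C against 40 °C (0.0465) passed. Pairing same-numbered libraries left the differences of the Hspa1b to Hspa8 ratio (1.27 and 1.15) and of the Hspa1a share (11.3 and 8.09 percentage points) unchanged, with an exact sign-flip p of 0.125, the smallest that 4 pairs allow. Leaving out 1 library gave shares of 2.67 to 4.13, 10.06 to 13.2 and 6.81 to 9.97 points, and differences of the Hspa8 to Hsph1 ratio of −0.21 to −0.099 for 44 °C against 37 °C and −0.11 to 0.0096 against 40 °C. Few reads limit Hspa1l and Hspa1a.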
